A study of Mus musculus with 9 samples.

Results

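Oxidative phosphorylation couples the oxidation of nutrients in mitochondria to the making of ATP. Complexes I to IV pass electrons to oxygen and complexes I, III and IV pump protons across the inner membrane, and complex V, the ATP synthase, uses the returning protons to make ATP. Most subunits are encoded in the nucleus and a few in mitochondrial DNA, and several complex IV subunits have a common isoform beside an isoform known from muscle, lung or testis. Photoreceptors, the rod and cone cells of the retina, pack mitochondria into their inner segments and also carry out aerobic glycolysis. The genes described here are those whose name on the array starts with Nduf, Uqcr, Cox4i, Cox5, Cox6, Cox7, Cox8, Atp5 or Sdh, each read with its brightest probe. These prefixes gave 96 gene names, of which 95 had a probe well above background on at least 3 of 9 arrays, out of 23593 genes tested in all. The 95 were 81 subunits (36 of complex I, 4 of complex II, 8 of complex III, 18 of complex IV and 15 of complex V), 12 assembly factors, Atp5s (now Dmac2l) and the pseudogene Atp5c1-ps. The name left untested was Cox8c, a testis isoform, whose probe was well above background on 1 array, that of WT at DD16.

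The arrays measured RNA of mouse retinal organoids, retina-like aggregates that ES or iPS cells form in floating culture. Of the 3 lines, Isl1KO is labelled a knockout of Islet-1 (Isl1), B4KO a knockout of Bhlhb4 (now Bhlhe23) and WT wild type, and both knockouts were engineered to lower the number of bipolar cells. At each of 3 days of differentiation, day 10 (DD10), day 16 (DD16) and day 23 (DD23), 1 sample of 5 pooled organoids was taken per line, so no line and day had a replicate. The labels do not say whether a line was 1 clone or which lines came from ES and which from iPS cells.

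The 9 arrays each held 59305 gene spots, of which 57.3% to 67.8% were well above background and none was saturated. Of 11 photoreceptor markers tested, 11 were well above background in every line at DD23, 8 or 9 at DD16 and 5 or 6 at DD10, and their summed relative signal was 1.89 to 3.39 at DD10, 36.4 to 41.0 at DD16 and 211 to 276 at DD23. That of 12 cell cycle genes was 165 to 213 at DD10, 110 to 126 at DD16 and 30.1 to 57.6 at DD23. The part of these markers in the day differences of the members was not tested. Of 2 Isl1 probes, 1 read lower in Isl1KO than in WT at each day (log2 differences of -0.65, -1.88 and -1.58), while the other gave 0.37, -0.76 and -0.26. The Bhlhe23 probe was well above background in WT at all 3 days, but not in B4KO at DD16 and DD23 nor in Isl1KO at DD23, and in Isl1KO at DD16 it read lower than in WT by a log2 difference of -1.73. The sources used here do not give where the deletions lie relative to these probes. The B4KO arrays had a slide of their own and each day its own array column, so B4KO and slide, and day and column, cannot be told apart.

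Signals are log2 of the processed intensity relative to the 75th percentile of the same array, and sets of 3 values are for DD10, DD16 and DD23 in that order. The members were bright: their median mean signal was 4.46, against -0.73 for all genes, and 76 of 95 lay in the brightest of 5 equal bins of genes. Differences are log2 differences from a limma fit of all 9 arrays with line and day as additive terms, given with the standard error (SE). A gene is said to rise or fall where limma's Benjamini-Hochberg adjusted p over all 23593 genes was under 0.05. Without replicates, these p-values set each difference against the departure from additivity across single pooled samples, not against the spread between cultures.

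Most respiratory chain genes changed by less than 2-fold with day, and the largest rises were those of complex IV isoforms. At DD16 against DD10, 10 of 95 members rose, beside 21.9% of all genes, and 18 fell, beside 18.8%. At DD23 against DD16, 15 rose, beside 19.3% of all genes, and 5 fell, beside 21.9%. Over the whole interval, DD23 against DD10, 22 rose, beside 31.6%, and 24 fell, beside 29.2%, so that 46 of 95 changed, beside 60.7% of all genes. The members' median differences were -0.04, 0.02 and -0.01, with 0.03, 0.01 and 0.05 for all genes, and their median absolute differences were 0.14, 0.11 and 0.21, with 0.31, 0.32 and 0.47 for all genes. These counts of rises include Cox6a2 and Cox8b, which passed the filter on dim probes only through later arrays, where they are bright, and so had to differ. All called members had the same sign in the 3 lines. Of them 4 of 28, 1 of 20 and 4 of 46 reached a 2-fold change, beside 26.9%, 22.8% and 37.1% of all called genes. Cox6a2 and Cox8b were in both counts of 4, and the 1 of 20 was Cox8b. In pooled tissue, fewer cells of a type and less RNA per cell cannot be told apart.

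The balance of rises and falls at DD23 moved with the scaling. Over DD23 against DD10, 34 members rose and 11 fell under quantile normalization, 46 and 8 under cyclic loess (chosen after seeing the data), and 14 and 29 under median scaling. Bright genes as a class differed from dim ones: the median difference of all genes was -0.16 in the brightest bin, which holds most members, against 0.32 in the dimmest. At DD23 against DD16, 12 of the 76 members in the brightest bin rose and 2 fell, beside 11.8% and 41.4% of all genes in it. Over DD23 against DD10, 15 of them rose and 20 fell, beside 21% and 42.4%. Calls kept in one direction under every alternative computed for the gene, including each array left out in turn, were 9 rises (Cox6a2, Cox8b, Ndufa4l2, Cox4i2, Ndufv3, Cox8a, Atp5s, Ndufaf3 and Ndufb10) and 6 falls (Ndufaf2, Ndufa1, Atp5k, Sdhb, Ndufb7 and Ndufaf4) over this interval. Of these, Cox6a2 and Cox8b had 18 alternatives each, against 19 for the others, since a filter on all 9 arrays leaves them out. Their rises were fixed by the filter on dim probes, so that they were kept adds nothing. Of 19 called members with further probes there, 11 had all of them of the same sign.

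**Figure D1:**
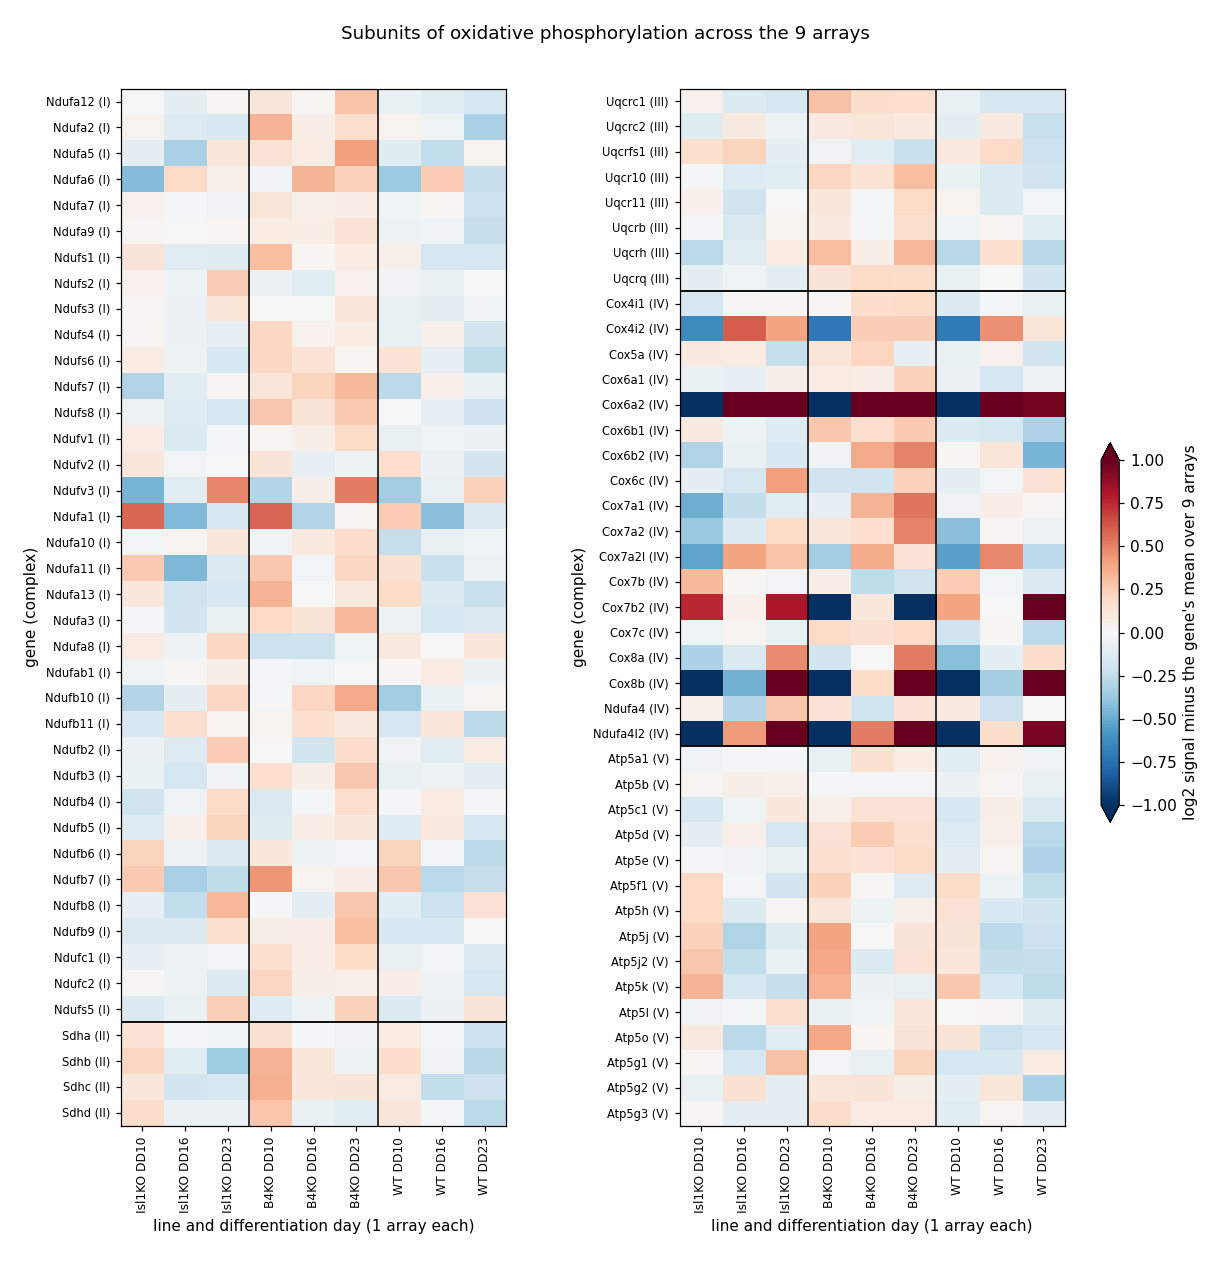
Log2 signal of each of the 81 subunits relative to the gene's own mean over the 9 arrays, with genes grouped by complex and 1 column per array (Isl1KO, B4KO and WT, each at DD10, DD16 and DD23). Most cells are pale, and the strongest colours are those of Cox6a2, Cox8b, Ndufa4l2 and Cox7b2, which run past the ends of the scale at -1 and 1. The low Cox7b2 values of B4KO at DD10 and DD23 were not well above background.

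**Figure D2:**
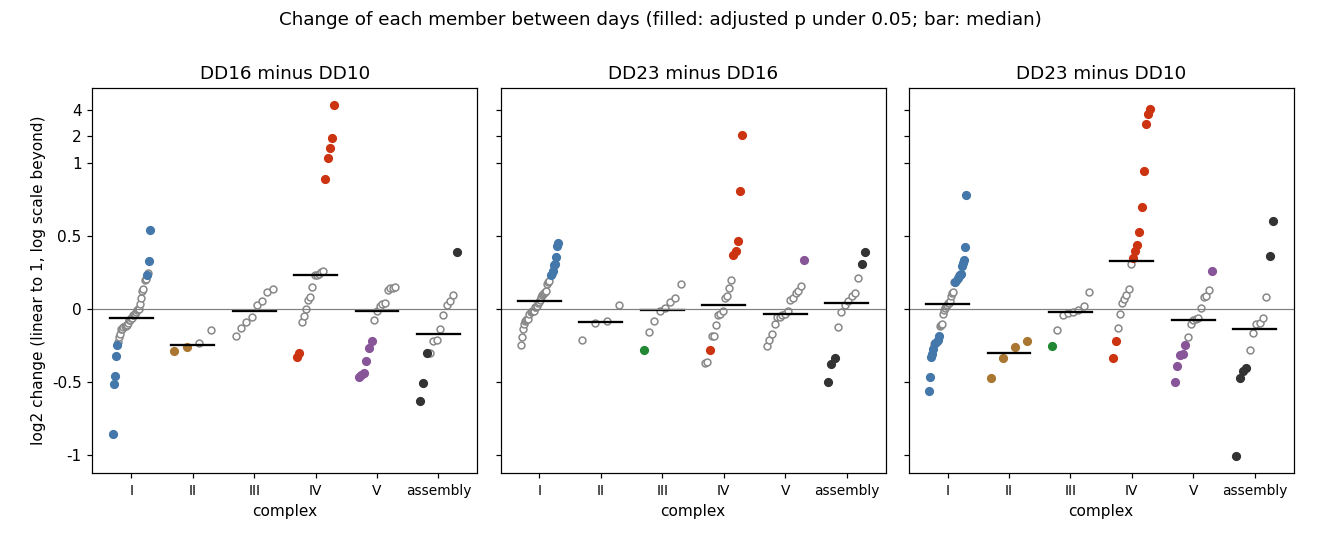
Log2 difference of each member between days, 1 point per gene, filled where limma's adjusted p was under 0.05, by complex and for assembly factors, with medians as bars; the axis is linear to 1 and logarithmic beyond. All 4 complex II genes fell at DD23 against DD10, and the points above 1 belong to complex IV; the Cox8b point at DD16 against DD10 is a difference between signals not well above background.

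Complex I takes electrons from NADH, and its subunits moved in both directions. At DD16 against DD10, 3 of 36 rose and 5 fell, beside 21.9% and 18.8% of all genes. At DD23 against DD16, 7 rose and none fell, beside 19.3% and 21.9% (17 and 24 rose under quantile normalization and cyclic loess). At DD23 against DD10, 9 rose and 8 fell, beside 31.6% and 29.2%, and the median difference was 0.03. Quantile normalization and cyclic loess turned this last count to 18 rises with 3 falls and 22 with 2, and median scaling to 3 with 10. In the matrix arm, which holds the redox centres, 4 of 16 subunits rose and 3 fell at DD23 against DD10, and in the membrane arm 5 of 20 rose and 5 fell.

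Among the catalytic subunits, Ndufs1, which carries iron-sulfur clusters, read 3.41, 3.17 and 3.16 in Isl1KO, 3.58, 3.30 and 3.36 in B4KO and 3.33, 3.11 and 3.1 in WT. Its DD16 values all lay below its DD10 values, with a difference of -0.25 (SE 0.06, adjusted p = 0.0262). Its other probe had the opposite sign (0.55), and the mean over both gave 0.15. Ndufv1, the NADH-binding subunit, read 4.48, 4.27 and 4.40 in Isl1KO, 4.42, 4.46 and 4.59 in B4KO and 4.33, 4.36 and 4.35 in WT and did not pass the test, with a difference of 0.04 (SE 0.08, adjusted p = 0.727) at DD23 against DD10. Ndufa9, a subunit at the junction of the arms, read 2.83, 2.81 and 2.83 in Isl1KO, 2.88, 2.88 and 2.95 in B4KO and 2.76, 2.77 and 2.58 in WT, again with no call and a difference of -0.04 (SE 0.08, adjusted p = 0.71).

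Ndufv3 rose at both steps. It is a small accessory subunit of the NADH-binding module and was read by a probe at chr17:31668209-31668268 (build mm9). Its signal was 5.41, 5.78 and 6.37 in Isl1KO, 5.59, 5.94 and 6.40 in B4KO and 5.54, 5.80 and 6.11 in WT. Each day lay above the one before it with no overlap, and the differences were 0.33 (SE 0.09, adjusted p = 0.0334) at DD16 against DD10 and 0.45 (SE 0.09, adjusted p = 0.011) at DD23 against DD16, a 1.72-fold rise in all. The accessory subunit Ndufa6 read 4.93, 5.55 and 5.41 in Isl1KO, 5.33, 5.70 and 5.59 in B4KO and 5.00, 5.62 and 5.13 in WT. All its DD16 values were above its DD10 values, by 0.54 (SE 0.10, adjusted p = 0.0105). Ndufb10, of the membrane arm, rose by 0.42 (SE 0.07, adjusted p = 0.00326) at DD23 against DD10.

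Of the complex I subunits called at DD16 against DD10, Ndufa1 fell most. This small X-linked membrane arm subunit (probe at chrX:34727627-34727686, mm9) read 4.87, 3.85 and 4.14 in Isl1KO, 4.87, 4.0 and 4.32 in B4KO and 4.55, 3.87 and 4.15 in WT, so that both later days lay below every DD10 value. The difference was -0.86 (SE 0.09, adjusted p = 0.00173) at DD16 against DD10, a ratio of 0.552, with a partial return at DD23 against DD16 of 0.30 (SE 0.09, adjusted p = 0.0418). Ndufb7 followed the same course without the return: it read 4.85, 4.26 and 4.34 in Isl1KO, 5.03, 4.63 and 4.65 in B4KO and 4.86, 4.32 and 4.36 in WT, and fell by 0.51 (SE 0.07, adjusted p = 0.00374) at DD16 against DD10. Ndufa11 and Ndufa13, also of the membrane arm, fell at DD16 against DD10 too, with differences of -0.46 and -0.32.

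Later rises in complex I came at DD23 against DD16. Ndufb8 read 5.04, 4.88 and 5.46 in Isl1KO, 5.11, 5.03 and 5.39 in B4KO and 5.02, 4.91 and 5.27 in WT. Its DD10 and DD16 values overlapped, and the difference at DD23 against DD16 was 0.43 (SE 0.08, adjusted p = 0.00718), though the mean over its probes gave -0.05. Ndufa5 (0.35), Ndufb2 (0.31), Ndufs5 (0.26) and Ndufb9 (0.23), all accessory subunits, rose in the same comparison.

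Complex II, succinate dehydrogenase, belongs both to the respiratory chain and to the citric acid cycle and is encoded wholly in the nucleus. None of its 4 genes rose between days. At DD16 against DD10 2 fell, where 21.9% of all genes rose and 18.8% fell. At DD23 against DD10 4 fell, where 31.6% of all genes rose and 29.2% fell, and the median difference of the 4 was -0.30. The 4 falls became 1 under quantile normalization, under cyclic loess and within the slide of Isl1KO and WT, with medians of -0.12 and -0.11 under the first 2. Sdhb, the iron-sulfur subunit (probe at chr4:140535052-140535108, mm9), read 4.85, 4.52 and 4.28 in Isl1KO, 4.97, 4.74 and 4.58 in B4KO and 4.81, 4.60 and 4.36 in WT. Both later days lay below all its DD10 values, with a difference of -0.26 (SE 0.07, adjusted p = 0.0308) at DD16 and -0.47 (SE 0.07, adjusted p = 0.00192) at DD23, a ratio of 0.722. Sdha, the flavoprotein that oxidises succinate, read 3.58, 3.41 and 3.40 in Isl1KO, 3.60, 3.43 and 3.41 in B4KO and 3.52, 3.43 and 3.23 in WT, all DD23 values below all DD10 values, with a difference of -0.22 (SE 0.07, adjusted p = 0.0378); the mean over its probes was 0.31, of opposite sign. The membrane anchors Sdhc and Sdhd fell at DD23 against DD10, with differences of -0.26 (SE 0.06, adjusted p = 0.0132) and -0.33 (SE 0.08, adjusted p = 0.0136).

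Sdhc has no promoter window here. Promoters of the other complex II genes are shown because the genes of this complex fell together and these windows hold motifs typical of respiratory genes. Each is the 300-base RefSeq window around the start, build GRCm38.p6, 5′ to 3′ on the gene's strand. Capitals mark matches, on either strand, to an NRF1-type motif (GCGC, any 2 bases, GCGC) and to the ETS-type motif CCGGAAG. They are Sdha at chr13:74350191-74350490 (minus strand), Sdhb at chr4:140961021-140961320 (plus strand) and Sdhd at chr9:50603800-50604099 (minus strand).
Sdha: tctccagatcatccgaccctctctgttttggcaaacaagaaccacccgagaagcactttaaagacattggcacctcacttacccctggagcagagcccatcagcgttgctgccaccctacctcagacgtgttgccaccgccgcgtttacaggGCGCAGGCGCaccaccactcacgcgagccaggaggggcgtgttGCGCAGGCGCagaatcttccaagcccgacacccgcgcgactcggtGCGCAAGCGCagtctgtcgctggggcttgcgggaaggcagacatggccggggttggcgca
Sdhb: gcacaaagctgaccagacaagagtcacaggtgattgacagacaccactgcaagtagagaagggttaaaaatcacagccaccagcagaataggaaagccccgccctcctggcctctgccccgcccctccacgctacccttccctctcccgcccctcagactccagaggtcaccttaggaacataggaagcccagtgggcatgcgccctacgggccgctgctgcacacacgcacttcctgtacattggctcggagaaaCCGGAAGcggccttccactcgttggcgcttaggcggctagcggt
Sdhd: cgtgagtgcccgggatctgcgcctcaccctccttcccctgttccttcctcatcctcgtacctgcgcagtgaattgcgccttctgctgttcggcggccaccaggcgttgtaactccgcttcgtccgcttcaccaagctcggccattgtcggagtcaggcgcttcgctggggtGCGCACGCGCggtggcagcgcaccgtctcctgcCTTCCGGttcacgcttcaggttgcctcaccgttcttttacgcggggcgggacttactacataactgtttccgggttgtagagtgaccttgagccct

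The Sdha window held the NRF1-type motif at 3 places, the Sdhb window held the ETS-type motif and the Sdhd window held both. These are matches of letters and say nothing of binding.

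Complex III, which passes electrons to cytochrome c, had few changes. Of 8 genes none passed the test at DD16 against DD10, beside 40.7% of all genes. At DD23 1, Uqcrfs1, fell against DD16, beside 21.9% of all genes, and against DD10, beside 29.2%. Uqcrfs1, the Rieske iron-sulfur protein, read 3.92, 3.98 and 3.66 in Isl1KO, 3.72, 3.65 and 3.54 in B4KO and 3.86, 3.95 and 3.54 in WT and changed by -0.28 (SE 0.08, adjusted p = 0.0345) at DD23 against DD16. The core protein Uqcrc2 read 3.85, 4.06 and 3.92 in Isl1KO, 4.06, 4.09 and 4.07 in B4KO and 3.88, 4.06 and 3.74 in WT, with a difference of -0.02 (SE 0.08, adjusted p = 0.842) at DD23 against DD10. Under quantile normalization and cyclic loess 2 and 4 complex III genes rose at DD23 against DD16 and none fell.

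Complex IV, cytochrome c oxidase, had 5 rises and 2 falls among 18 genes at DD16 against DD10, beside 21.9% and 18.8% of all genes. At DD23 against DD10 it had 9 and 2, beside 31.6% and 29.2%, and its median difference was 0.33. These rises and this median include Cox6a2 and Cox8b, which passed the filter on dim probes only through later arrays. The 10 genes left when tissue and paralogous forms other than the common one are set aside gave 0 rises with 2 falls and 3 with 2 in the same comparisons, and the 5 early rises were Cox6a2, Cox4i2, Ndufa4l2, Cox7a2l and Cox8b, the last between signals not well above background. Cox4i1, the common form of subunit 4, read 5.70, 5.88 and 5.88 in Isl1KO, 5.88, 6.04 and 6.05 in B4KO and 5.73, 5.85 and 5.80 in WT, with a difference of 0.14 (SE 0.07, adjusted p = 0.119) at DD23 against DD10. Cox5a, which binds beside it, fell by 0.28 (SE 0.07, adjusted p = 0.0252) at DD23 against DD16, while Cox6c rose by 0.40 (SE 0.09, adjusted p = 0.0187).

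Cox6a2, the heart and skeletal muscle form of subunit 6A, had the largest fitted difference of the 95 members. It read -5.24, -1.10 and -1.41 in Isl1KO, -5.68, -0.43 and -0.94 in B4KO and -5.36, -1.33 and -1.61 in WT with a probe at chr7:135349160-135349219 (mm9). No DD10 array was well above background and all 6 later arrays were, so the fold is a bound: at least 15.1-fold at DD16 against DD10 and at least 11.7-fold at DD23 against DD10. The gene passed the filter on dim probes through its later arrays alone, where it is bright, so these rises are a description and no p is given for them. Such bounds set the mean of the brighter day against, on each array of the dimmer day, the lowest signal among probes well above background or the probe's own where higher. DD16 and DD23 overlapped, with a difference of -0.37 (SE 0.25, adjusted p = 0.28). The common form Cox6a1 (probe at chr5:115795726-115795785) read 7.11, 7.09 and 7.23 in Isl1KO, 7.25, 7.24 and 7.40 in B4KO and 7.11, 7.0 and 7.12 in WT, with overlapping days and a difference of 0.09 (SE 0.07, adjusted p = 0.27).

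Cox8b, the muscle form of subunit 8, was well above background at DD23 only. It read -7.26, -5.64 and -3.72 in Isl1KO, -6.80, -4.99 and -3.05 in B4KO and -6.48, -5.50 and -3.12 in WT (probe at chr7:148084852-148084911, mm9). Every DD23 value lay above every earlier value, and the mean by at least 2.56-fold against DD16 and at least 2.98-fold against DD10. It too passed the filter through the days on which it is bright, the DD23 arrays alone, so this rise is given without a p. The common form Cox8a (probe at chr19:7289652-7289708) also rose: it read 6.43, 6.60 and 7.22 in Isl1KO, 6.55, 6.74 and 7.26 in B4KO and 6.32, 6.65 and 6.91 in WT, and its DD23 values lay above all DD16 values, by 0.47 (SE 0.09, adjusted p = 0.00852), or 1.38-fold.

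The Cox8b window is shown because that gene appeared last and is among the 8 of 79 members with a TATAAA, in capitals at base 255 of the window, close to the annotated start (chr7:140900397-140900696, GRCm38.p6, minus strand).
Cox8b: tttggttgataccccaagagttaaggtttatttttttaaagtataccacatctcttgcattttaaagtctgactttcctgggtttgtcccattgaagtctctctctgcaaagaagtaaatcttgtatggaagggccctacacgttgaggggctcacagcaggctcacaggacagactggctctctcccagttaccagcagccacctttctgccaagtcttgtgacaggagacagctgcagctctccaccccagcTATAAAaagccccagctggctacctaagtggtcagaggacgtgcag

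Cox4i2, the lung form of subunit 4, which is known to respond to low oxygen, read -0.17, 1.07 and 0.86 in Isl1KO, -0.26, 0.71 and 0.71 in B4KO and -0.25, 0.92 and 0.58 in WT (probe at chr2:152590612-152590671, mm9). All later values lay above all DD10 values, by 1.12 (SE 0.09, adjusted p = 0.00084), or 2.18-fold, at DD16 and by 0.94 (SE 0.09, adjusted p = 0.000364) at DD23. Ndufa4l2, a relative of the complex IV subunit Ndufa4 and a known hypoxia-inducible gene, rose at both steps: it read 1.73, 3.76 and 4.48 in Isl1KO, 2.24, 3.85 and 4.77 in B4KO and 1.41, 3.51 and 4.28 in WT (probe at chr10:126954149-126954208). No day overlapped another, with differences of 1.92 (SE 0.11, adjusted p = 0.000344) at DD16 against DD10 and 0.81 (SE 0.11, adjusted p = 0.00348) at DD23 against DD16, a 6.59-fold rise in all. Its second probe, dim and above background on 3 arrays, gave 0.03 for DD23 against DD10. Ndufa4 itself read 3.98, 3.63 and 4.19 in Isl1KO, 4.07, 3.73 and 4.06 in B4KO and 4.01, 3.71 and 3.92 in WT, lower at DD16 than at DD10 with a difference of -0.33 (SE 0.09, adjusted p = 0.0313) and higher at DD23 than at DD16 by 0.37 (SE 0.09, adjusted p = 0.0207).

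Cox7a2l, which helps complexes III and IV assemble into supercomplexes, read 5.60, 6.53 and 6.42 in Isl1KO, 5.79, 6.50 and 6.27 in B4KO and 5.59, 6.62 and 5.87 in WT. Its later values all exceeded its DD10 values, by 0.89 (SE 0.14, adjusted p = 0.00553), or 1.85-fold, at DD16 and 0.52 (SE 0.14, adjusted p = 0.0185) at DD23. Of the subunit 7A pair, the muscle form Cox7a1 read 0.10, 0.35 and 0.47 in Isl1KO, 0.51, 0.93 and 1.12 in B4KO and 0.55, 0.65 and 0.60 in WT, with overlapping days and a difference of 0.35 (SE 0.11, adjusted p = 0.0386) at DD23 against DD10, and the common form Cox7a2 rose by 0.44 (SE 0.10, adjusted p = 0.0126). The testis forms Cox6b2 and Cox7b2 had no day call. Cox6b2 read 2.45, 2.69 and 2.60 in Isl1KO, 2.71, 3.13 and 3.25 in B4KO and 2.77, 2.88 and 2.29 in WT, and Cox7b2 read -2.69, -3.39 and -2.63 in Isl1KO, -5.13, -3.33 and -5.02 in B4KO and -3.05, -3.44 and -2.29 in WT, not well above background in B4KO at DD10 and DD23.

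Markers of skeletal muscle, heart and germline were read beside these isoforms, and no lung markers were examined. Of 11 skeletal muscle markers 7 were tested. At DD23 against DD10 3 rose, beside 31.6% of all genes, and none fell, beside 29.2%. The summed relative signal of the 7 was 0.511 to 0.676 at DD10, 0.599 to 0.716 at DD16 and 0.798 to 0.867 at DD23. Myog, Ckm and Cav3 were well above background on no array and Myod1 on 1, whereas Actn2, Tnnt3, Tnnc2 and Mybpc1 were on all 9. Myh3, 1 of the 3 that rose, was well above background on 4 arrays, those of DD23 and Isl1KO at DD16. It passed the filter through those arrays, so its difference of 2.29 at DD23 against DD10 is a description. Of 7 heart markers 5 were tested, with summed signals of 1.04 to 1.21, 0.802 to 0.976 and 0.618 to 0.749, and Tnnt2 and Myl2 were well above background on no array, whereas Myl7, Nppa, Actc1 and Tnni3 were on all 9. Of 5 germline markers 2 were tested, Tnp1 and Ddx4, and both rose at DD23 against DD10. Tnp1 was also well above background on 4 arrays only, those of DD23 and Isl1KO at DD16, so its rise is a description too. Dazl, which was not tested, was well above background on 2 arrays, those of B4KO and Isl1KO at DD10. The part of muscle, heart or germline cells in the isoform values was not tested.

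**Figure D3:**
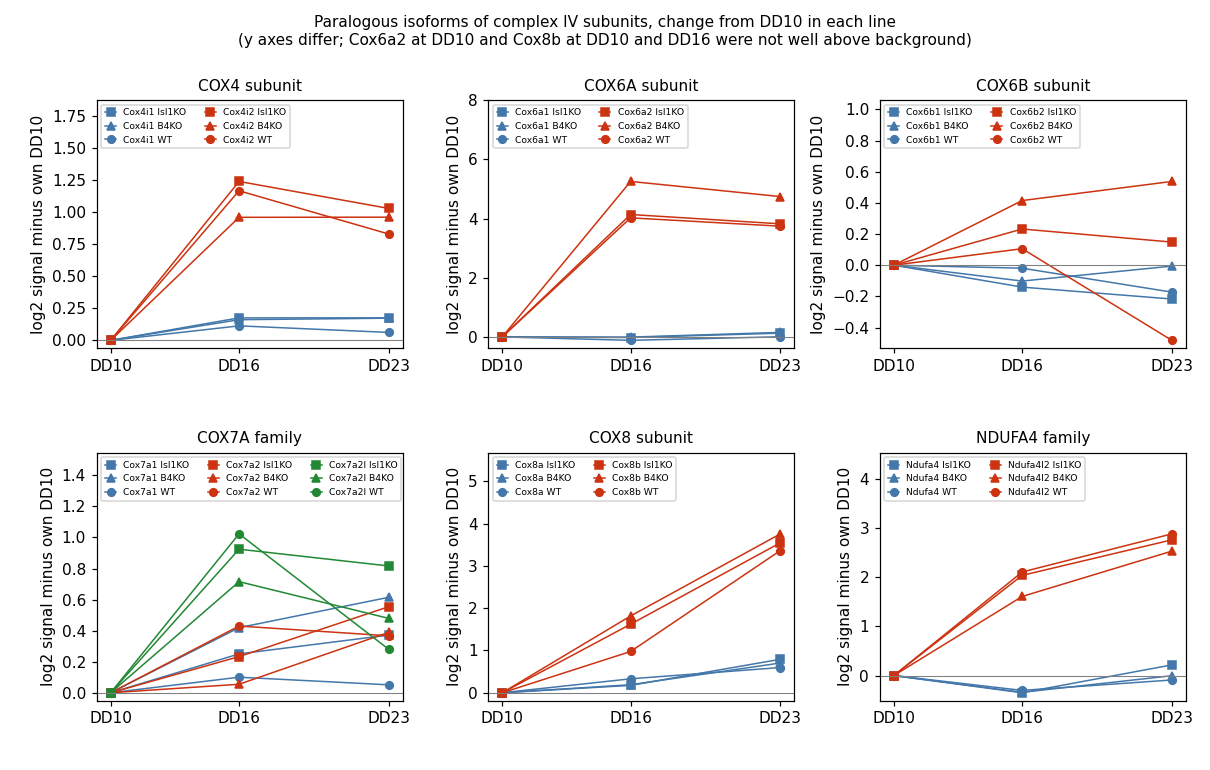
Log2 signal minus the same line's DD10 value for complex IV isoform families in 6 panels, against differentiation day (squares Isl1KO, triangles B4KO, circles WT). Cox6a2, Cox8b, Cox4i2 and Ndufa4l2 rise in all 3 lines, while Cox6a1 and Cox4i1 stay near 0; Cox6a2 at DD10 and Cox8b at DD10 and DD16 were not well above background.

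In complex V, 6 of 15 genes fell and none rose at DD16 against DD10 (median -0.02), beside 18.8% and 21.9% of all genes. All 6 were among the 7 genes of the Fo membrane part and stalk other than the c ring (median -0.36). None of the 3 c ring genes, also of Fo, passed the test (median -0.02), nor did any of the 5 F1 genes (median 0.13), and the difference between these parts was not tested. The 6 falls were 5 under quantile normalization and 6 under cyclic loess, median scaling and normexp, but 4 with the mean over probes and 2 within the slide of Isl1KO and WT. Atp5k, subunit e of Fo, read 5.24, 4.74 and 4.68 in Isl1KO, 5.25, 4.85 and 4.83 in B4KO and 5.17, 4.72 and 4.65 in WT. Both later days lay below every DD10 value, with a difference of -0.45 (SE 0.07, adjusted p = 0.00475) at DD16 and -0.50 (SE 0.07, adjusted p = 0.00121) at DD23, and a second probe gave -0.45 and -0.51. Atp5j (subunit F6), Atp5j2 (subunit f) and Atp5o (the oligomycin sensitivity protein) fell at DD16 against DD10, with differences of -0.44, -0.46 and -0.36, and Atp5f1 (subunit b, now Atp5pb) did so with -0.22. In that comparison 1 of 2 further probes of Atp5f1 (0.87) and the further probe of Atp5j (0.0068) had the opposite sign. Those of Atp5h, Atp5j2 and Atp5o had the same sign.

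The catalytic subunit Atp5b read 6.63, 6.66 and 6.66 in Isl1KO, 6.59, 6.60 and 6.60 in B4KO and 6.55, 6.63 and 6.54 in WT, with overlapping days and a difference of 0.00 (SE 0.06, adjusted p = 0.961) at DD23 against DD10. Atp5c1, the central stalk subunit gamma, gave 0.13 (SE 0.09, adjusted p = 0.252). The Atp5g genes encode the same mature c ring subunit and differ in their import sequences; Atp5g1 rose by 0.33 (SE 0.08, adjusted p = 0.0168) at DD23 against DD16, while Atp5g2 and Atp5g3 gave -0.25 and -0.04 and did not pass. Under quantile normalization and cyclic loess 8 and 10 of the 15 complex V genes rose at DD23 against DD16, against 1 in the fit above.

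Of the 12 assembly factors 2 rose and 4 fell at DD23 against DD10, beside 31.6% and 29.2% of all genes. Ndufaf2, a complex I assembly factor (probe at chr13:108843015-108843074, mm9), read 1.79, 1.05 and 0.63 in Isl1KO, 1.80, 1.23 and 0.86 in B4KO and 1.73, 1.15 and 0.81 in WT. Of the 95 members it alone fell at both steps, with no overlap between days and differences of -0.63 (SE 0.08, adjusted p = 0.00281) and -0.38 (SE 0.08, adjusted p = 0.0123), to a DD23 over DD10 ratio of 0.497. Over DD23 against DD10, Ndufaf4, which acts in the same pathway, fell by 0.47 (SE 0.07, adjusted p = 0.00208), and Ndufaf3, its partner, rose by 0.60 (SE 0.07, adjusted p = 0.000781). Sdhaf2, which attaches flavin to Sdha, fell by 0.51 (SE 0.08, adjusted p = 0.00597) at DD16 against DD10, and Sdhaf3, which helps mature Sdhb, with a difference of -0.50 (SE 0.14, adjusted p = 0.0297) at DD23 against DD16. Atp5s read -2.36, -1.71 and -1.32 in Isl1KO, -2.58, -2.13 and -1.85 in B4KO and -2.46, -2.02 and -2.04 in WT and rose by 0.73 (SE 0.12, adjusted p = 0.0031) at DD23 against DD10.

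The complexes also hold subunits encoded in mitochondrial DNA. Of 13 such genes 11 were tested. At DD16 against DD10 6 fell, beside 18.8% of all genes, and none rose, beside 21.9% (median -0.35). At DD23 against DD16 7 rose, beside 19.3%, and 1 fell, beside 21.9% (median 0.43). Over DD23 against DD10, 4 rose, beside 31.6%, and 3 fell, beside 29.2%. Those counts were 5 and 2 under quantile normalization and 8 and 2 under cyclic loess. ND3, of complex I, read 5.70, 5.10 and 5.77 in Isl1KO, 5.62, 5.25 and 5.64 in B4KO and 5.68, 5.16 and 5.72 in WT. Its DD16 values lay below all others, with a difference of -0.49 (SE 0.08, adjusted p = 0.0063) against DD10, and DD23 was above DD16 by 0.54 (SE 0.08, adjusted p = 0.00444). ND1 read 4.13, 2.95 and 3.14 in Isl1KO, 3.99, 3.24 and 3.18 in B4KO and 3.96, 3.00 and 3.24 in WT and stayed low, with -0.84 (SE 0.10, adjusted p = 0.00088) at DD23 against DD10. ND5 rose by 0.71 (SE 0.08, adjusted p = 0.00236) at DD23 against DD16 and the complex IV core gene COX1 by 0.34 (SE 0.08, adjusted p = 0.0165). ND6, the protein gene on the other strand of mitochondrial DNA, fell by 0.33 (SE 0.09, adjusted p = 0.0279).

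**Figure D4:**
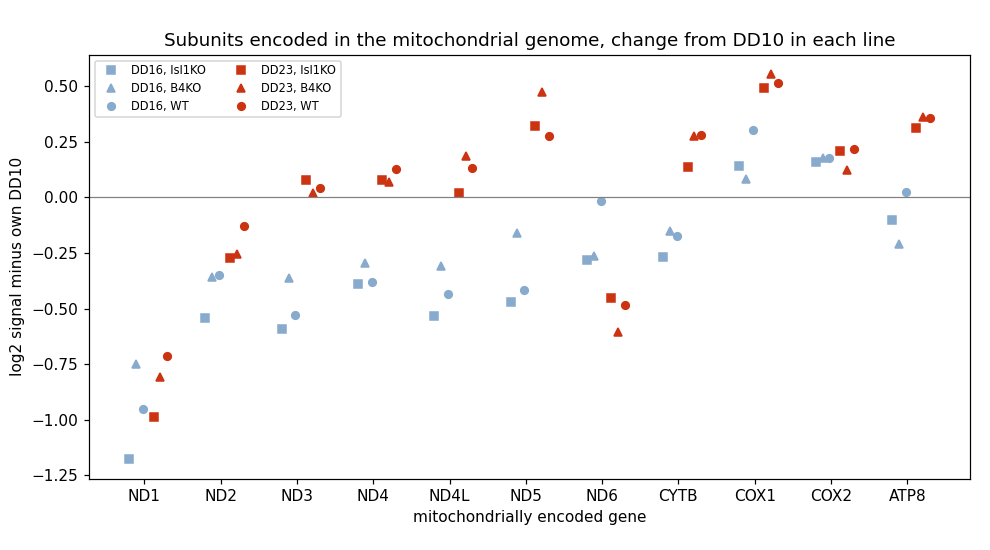
Log2 signal of 11 genes of mitochondrial DNA at DD16 (light blue) and DD23 (red) minus the same line's DD10 value (squares Isl1KO, triangles B4KO, circles WT). DD16 lies below 0 for most complex I genes, ND1 stays below 0 at DD23, and COX1 lies above 0 at DD23 in all 3 lines.

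Lists of genes around the respiratory chain held some larger changes. Their counts here and in the next paragraph are for DD23 against DD10, where 31.6% of all genes rose and 29.2% fell. Of 78 mitochondrial ribosomal protein genes, which translate the mitochondrial messages, 3 rose and 41 fell at DD23 against DD10 (median -0.25), or 5 with 29 under quantile normalization and 7 with 28 under cyclic loess; Mrpl3 changed by -1.03 (SE 0.11, adjusted p = 0.000536). Of 20 glycolysis genes 9 rose and 3 fell; Eno2, the neuronal enolase, rose by 2.31 (SE 0.12, adjusted p = 6.31e-05) and Aldoc by 2.11 (SE 0.18, adjusted p = 0.000238), while Ldhb fell by 0.66 (SE 0.07, adjusted p = 0.000482). Of 10 genes of the response to low oxygen 7 rose and 1 fell, among them Ndrg1 with 3.88 (SE 0.10, adjusted p = 1.28e-05), and Pdk1 fell by 0.81 (SE 0.13, adjusted p = 0.00284). The summed signal of those 10 was 80.8 to 106 at DD10, 154 to 202 at DD16 and 164 to 198 at DD23; its part in the rises of Cox4i2 and Ndufa4l2 was not tested.

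Of 17 regulators of mitochondrial biogenesis 4 rose and 7 fell at DD23 against DD10 (23.5% and 41.2%, beside 31.6% and 29.2% of all genes). The nuclear receptor gene Esrrg rose by 2.39 (SE 0.22, adjusted p = 0.000317) and the coactivator gene Ppargc1b by 1.89 (SE 0.17, adjusted p = 0.000277). The related coactivator gene Pprc1 fell by 1.25 (SE 0.11, adjusted p = 0.000263), Nrf1 with a difference of -0.80 (SE 0.09, adjusted p = 0.000497) and Tfam, which packages and transcribes mitochondrial DNA, with a difference of -0.72 (SE 0.09, adjusted p = 0.000915). Of 10 carriers and intermembrane proteins 2 rose and 4 fell, with the ADP/ATP carrier Slc25a5 at -0.67 (SE 0.07, adjusted p = 0.000563) and mitochondrial creatine kinase Ckmt1 at 1.39 (SE 0.13, adjusted p = 0.000293). Of 13 citric acid cycle genes 3 rose and 5 fell (23.1% and 38.5%), and of 33 further assembly factors 8 rose and 4 fell (24.2% and 12.1%). Among these 8 rises, that of Lyrm7 is a description, since its probe was well above background on only 4 of 9 arrays.

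A RefSeq promoter window was matched for 79 of the 95 members. The NRF1-type motif lay in 29.1% of them, against 7.0% of 27025 genes, searched on both strands. The ETS-type motif CCGGAAG lay in 25.3%, against 9.93%, and the YY1-type motif AAGATGGC in 13.9%, against 3.19%. TATAAA was in 10.1%, against 15.7%, and ACGTG, the core of hypoxia response elements, in 26.6%, against 21.8%. Of the 11 windows with the YY1-type motif 7 belonged to complex I, 3 to complex V and 1 to an assembly factor. Among 7 members with a window that rose at DD16 against DD10, 5 held ACGTG, 1 the NRF1-type and none the ETS-type motif; among 16 that fell, the counts were 2, 5 and 6. The other 3 risers, Cox6a2, Cox4i2 and Ndufa4l2, have no window here. Of the 56 not called in that comparison, 14 held ACGTG. At DD23 against DD16 it lay in 5 of 12 windows of members that rose, 1 of 5 that fell and 15 of 62 not called. At DD23 against DD10 the counts were 8 of 17, 4 of 22 and 9 of 40. Cox8b, which passed the filter on dim probes through its DD23 arrays alone, is among the risers with ACGTG. The differences between these counts were not tested. Windows of Ndufb8 (chr19:44555393-44555692, minus strand) and Atp5j2 (chr5:145191492-145191791, minus strand), in GRCm38.p6, show the YY1-type motif in capitals at bases 289 and 274 of the window, in a gene that rose late and in a gene that fell early.
Ndufb8: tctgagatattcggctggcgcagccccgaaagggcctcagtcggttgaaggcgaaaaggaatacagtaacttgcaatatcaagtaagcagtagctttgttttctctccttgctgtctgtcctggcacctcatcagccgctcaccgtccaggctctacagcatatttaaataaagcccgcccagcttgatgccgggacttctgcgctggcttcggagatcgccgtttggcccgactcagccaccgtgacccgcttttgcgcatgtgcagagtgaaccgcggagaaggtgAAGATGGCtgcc
Atp5j2: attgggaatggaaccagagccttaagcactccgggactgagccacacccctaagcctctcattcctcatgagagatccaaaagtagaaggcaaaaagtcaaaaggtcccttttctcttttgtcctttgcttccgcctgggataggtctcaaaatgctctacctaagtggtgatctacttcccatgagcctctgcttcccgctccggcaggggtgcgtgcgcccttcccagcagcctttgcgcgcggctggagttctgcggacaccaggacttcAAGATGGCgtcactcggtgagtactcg

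Differences of the knockouts from WT were small in these genes. In Isl1KO against WT no member passed the test, beside 0.00424% of all genes (1 gene), and 3 of 95 had an unadjusted p under 0.05; limma's lowest adjusted p was 0.540 and the median difference 0.05. In B4KO against WT 18 members rose, beside 4.0% of all genes, and 1 fell, beside 18.0%. In the brightest bin of genes, 16 of 76 members rose and 1 fell, beside 8.24% and 9.54% of all genes in it. The median of the 95 members was 0.18, against 0.00 for all genes, with matched medians of 0.15, 0.10 and 0.26 at DD10, DD16 and DD23, and 82 of 95 were positive. No call reached 2-fold.

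These B4KO differences were spread over complexes: 6 of 36 genes rose in complex I, 1 of 4 in II, 2 of 8 in III, 4 of 18 in IV and 3 of 15 in V. Of all genes 4.0% rose. Ndufa4l2 gave the largest rise, 0.55 (SE 0.11, adjusted p = 0.0171), but its dim second probe gave -2.55. Cox6b1, the common form of subunit 6B, read 2.46, 2.32 and 2.25 in Isl1KO, 2.64, 2.54 and 2.63 in B4KO and 2.23, 2.21 and 2.06 in WT; all B4KO values lay above all WT values, by 0.43 (SE 0.08, adjusted p = 0.0121). Uqcrc1, a complex III core protein, read 3.75, 3.57 and 3.55 in Isl1KO, 4.0, 3.88 and 3.87 in B4KO and 3.64, 3.54 and 3.54 in WT, likewise without overlap, with a difference of 0.34 (SE 0.06, adjusted p = 0.0137). Ndufaf5, a complex I assembly factor, read -0.11, -0.33 and -0.29 in Isl1KO, 0.31, 0.18 and 0.26 in B4KO and -0.02, -0.31 and -0.09 in WT, again without overlap and 0.39 (SE 0.07, adjusted p = 0.0141) apart. The pseudogene Atp5c1-ps read 2.83, 2.90 and 2.94 in Isl1KO, 2.49, 2.41 and 2.48 in B4KO and 2.84, 2.93 and 2.73 in WT and was the member that fell, with a difference of -0.38 (SE 0.08, adjusted p = 0.0248), all its B4KO values lying below all WT values.

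The difference between B4KO and WT ran with brightness. Over all genes its median was -0.42, -0.15, 0.02, 0.08 and 0.12 in bins of mean signal ordered dim to bright, and the 76 members of the brightest bin had a median of 0.19. Cyclic loess, which levels such a trend and was chosen after seeing the data, gave 9 calls, 7 of them among the 19. Quantile normalization gave 13 rises and 2 falls, and 14 of these calls were among the 19. Leaving out WT at DD10 gave 0 calls and leaving out B4KO at DD23 gave 1. No call was kept under every alternative. Of 8 called members with further probes, 4 (Cox7c, Atp5o, Ndufaf5 and Ndufa4l2) had a probe of opposite sign. In Isl1KO against B4KO 1 member rose, beside 18.1% of all genes, and 14 fell, beside 3.8%. The Cox8b fall among them (-0.60) rests mostly on background values, since each of these lines had 1 of 3 arrays well above background.

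**Figure D5:**
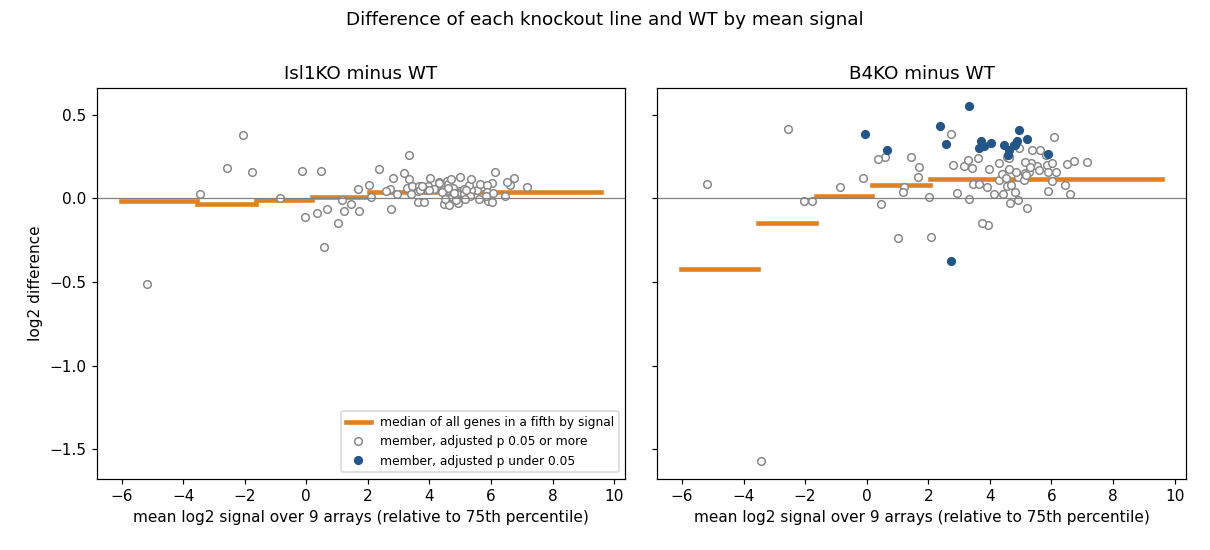
Log2 difference of each member from WT, for Isl1KO and for B4KO, against its mean log2 signal, filled where limma's adjusted p was under 0.05; orange bars are medians of all genes in 5 equal bins of mean signal. Isl1KO members lie around 0 with none filled, and in B4KO the bars climb with signal and most bright members lie above 0.

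For each knockout a DD23 term of its own was added to the fit, beside the line terms. Such a term compares the gap between knockout and WT at DD23 with their average gap on the earlier days. Whether a knockout differed from WT at DD23 as such was not tested. No member passed for either of these terms, beside 0.0% of all genes, and 1 member for each had an unadjusted p under 0.05. The lowest adjusted p among members was 0.971 for Isl1KO and 0.751 for B4KO. With 2 residual degrees of freedom this fit has little precision, and it does not show that the lines followed the same course.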

How the data were processed

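RNA of 9 pooled samples (3 lines at 3 days, 5 organoids each) was labelled with Cy3 and measured on single-colour Agilent arrays, per the labels' protocols. Per the submitters' processing notes, the scans were read in Agilent Feature Extraction, version 12.0.3.1. The deposited processed intensity was background-subtracted and detrended, with no normalization between arrays, per the file headers. Flags of 0 or 1 for spots well above background, saturated or outlying were given beside the intensity, per the file headers. A table of values that the authors also deposited, a ratio to each array's 75th percentile, served as an alternative. Probe coordinates are of build mm9, per the file headers.

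Intensities were averaged over spots of a probe, 102 of 56605 gene probes with an outlier flag were left out, and log2 of the intensity minus log2 of the array's 75th percentile was taken. Each gene was read with its brightest probe well above background on at least 3 arrays. The fit was limma 3.58.1 (R 4.3.3) with line and day as additive terms (4 residual degrees of freedom), lmFit and eBayes, with Benjamini-Hochberg adjustment over 23593 genes and a threshold of 0.05. The steps were tested on simulated data. With 9 arrays, precision is limited by their number. Accession names were updated through RefSeq names (assembly GRCm38.p6), and promoter windows are from RefSeq too.

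Named genes were a core panel of subunits, genes with an isoform, the members with the largest calls in each comparison and the largest calls of each surrounding list; a few further called members were named after their values were seen. The members and lists were chosen with earlier results of these data known. Alternatives were quantile normalization, median scaling, normexp background correction (offset 50), filters on dim probes, the mean over probes, the scanner file's gene names, the deposited value table, the slide of Isl1KO and WT alone, each array left out, and cyclic loess.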

Additional observations from a re-analysis of the deposited data

How the results depend on the processing

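Counts of called members moved with the processing, and cyclic loess and the alternatives of the test of the added DD23 terms were chosen after seeing the data. At DD16 against DD10, the 10 rises became 6 within the slide of Isl1KO and WT, and the 18 falls became 9 with no filter on dim probes and 6 within that slide. At DD23 against DD16, the 15 rises became 38 under quantile normalization, 49 under cyclic loess, 7 with no filter and 4 within the slide. The 5 falls there became 3 under quantile normalization and under cyclic loess, 8 under median scaling and under normexp, 2 with no filter and 1 within the slide. At DD23 against DD10, the 22 rises became 34, 46, 14 and 9 under quantile normalization, cyclic loess, median scaling and the slide alone, and the 24 falls became 11, 8, 15 and 11 under quantile normalization, cyclic loess, no filter and the slide alone. The 19 calls of B4KO against WT became 41 under median scaling, 31 under normexp, 4 with no filter, 12 with the mean over probes and 9 under cyclic loess. The 15 calls of Isl1KO against B4KO became 29, 26 and 4 under median scaling, normexp and no filter.

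Leaving out each array in turn gave 7 to 9 rises and 8 to 18 falls at DD16 against DD10, 4 to 14 and 1 to 5 at DD23 against DD16, and 11 to 21 and 12 to 21 at DD23 against DD10. It gave 0 to 11 calls for B4KO against WT, 1 to 15 for Isl1KO against B4KO and 0 to 0 for Isl1KO against WT. The lowest were 8 falls at DD16 against DD10 without Isl1KO at DD16, 4 rises at DD23 against DD16 without that array, 11 rises at DD23 against DD10 without Isl1KO at DD23 and 12 falls without WT at DD23. Isl1KO against WT and the test of the added DD23 terms had 0 calls under every alternative run.

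Of the named members' values, 16 changed sign where the value was past the threshold before or after the change; sign changes with neither value past it are not listed. With the mean over probes, Ndufs1 gave 0.15 at DD16 and 0.31 at DD23 against DD10, Sdha 0.22 and 0.31, Ndufb8 -0.050 at DD23 against DD16 and -0.35 against DD10, Ndufa4l2 -1.0 and Ndufaf5 -0.11 in B4KO against WT, and Ndufaf5 0.10 in Isl1KO against B4KO. At DD23 against DD16, quantile normalization gave 0.23 for Cox4i1 and 0.26 for Atp5b, and cyclic loess 0.28 for Cox4i1, 0.28 for Atp5b, 0.26 for Atp5c1 and 0.24 for Atp5g3. Cyclic loess gave 0.011 for Cox5a at DD23 against DD10. The cause of these changes was not tested. Replicate numbers gave no pairing, because all samples carry the same one. Line is a term of the fit, which matches the days within each line. Array signal over background limits Cox6a2 at DD10, Cox8b before DD23 and Cox7b2.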
